A study of Mus musculus with 6 samples.

Results

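The let-7 family is a group of small RNAs of nearly the same sequence, and 8 of its entries are described here: let-7b, let-7c-1, let-7c-2, let-7e, let-7g, let-7i, let-7j and let-7k. They were taken by name from the 1006 miRNA precursor entries of the count table and are the let-7 entries other than those of type a, d and f. Small RNA was sequenced from 6 libraries, namely 1 of mouse primary osteoblasts (OB), 1 of mouse bone marrow cells (BM), 2 of vesicles released by C2C12 cells (Myo-EVs) and 2 of vesicles released by C2C12 cells under fluid flow shear stress (FFSS-Myo-EVs). C2C12 is an established mouse myoblast line. The shear stress, a calculated 6 dyn/cm2 at the bottom of the plate, was applied for 48 hr on an orbital shaker in medium with serum depleted of vesicles, and the other C2C12 cells were cultured without it. The labels give the same mixed background for all 6 libraries, 81.25% C57BL/6J and 18.75% 129/SvJ. The methods give it for the mice only, and C2C12 as a line obtained from ATCC, so this label need not hold for the vesicles. For OB and BM the labels give an age of 8 to 10 weeks. The methods instead describe osteoblasts pooled from the calvariae of 5 male pups, 3 to 5 days old, at the second passage, and bone marrow from the tibiae of 1 male mouse, 8 weeks old. No allele and no other agent distinguishes the groups in the sample labels, but their growth protocol speaks of vitamin D or dexamethasone and not of FFSS. Nothing in the labels says whether the 2 libraries of each vesicle group came from separate cultures, so the spread between them may be technical.

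let-7 miRNAs were found as regulators of developmental timing and are among the most abundant miRNAs of differentiated cells. A miRNA guides Argonaute proteins to messenger RNAs that pair with its seed, the bases at positions 2 to 8, and thereby lowers the output of those messages. Known let-7 targets include Hmga2, Lin28a, Lin28b and members of the Ras family, and the LIN28 proteins in turn block the maturation of let-7 precursors. Members with a shared seed have largely the same predicted targets, so the make-up of the family is described here together with its total.

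The mature sequences are shown because the entries differ from each other by few bases, and because 2 low entries resemble 2 high ones. They were taken from RefSeq for GRCm38.p6, where all 7 distinct names were matched, and the capitals mark the seed.
let-7b: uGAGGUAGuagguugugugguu
let-7c: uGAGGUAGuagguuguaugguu
let-7e: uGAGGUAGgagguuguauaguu
let-7k: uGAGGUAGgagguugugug
let-7g: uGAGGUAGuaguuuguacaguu
let-7i: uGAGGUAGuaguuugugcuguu
let-7j: uGAGGUAUuaguuugugcuguuau

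The seed GAGGUAG was shared by 6 of the 7 names. In the table of 1679 mature miRNA names it was found in 11, all of them let-7 forms except miR-98-5p and miR-1961. The entry mir-1961 had from 3 to 11 counts per library and is not considered further. The seed of let-7j was GAGGUAU. Over the 22 positions that both have, counted from 1 at the 5′ end, let-7j differed from let-7i only by G8U, read from let-7i to let-7j. Over 19 positions, let-7k differed from let-7b only by U9G and from let-7e by A17G and A19G. The names also fell into sets outside the seed. Relative to let-7b, all of let-7g, let-7i and let-7j carried G12U and U18C, and none of let-7c, let-7e and let-7k did. The entries let-7c-1 and let-7c-2 are separate genes with the same mature sequence, and their counts were nearly equal, let-7c-2 being from 1.01 to 1.06 times let-7c-1 in the 6 libraries. Reads of let-7c were thus listed under both entries, and in sums and shares below let-7c was counted once, by the higher entry.

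The genes lie at 7 places of GRCm38. let-7i is on the minus strand of chromosome 10 from 122985640 to 122985724, in an exon of the transcribed pseudogene D630033A02Rik. let-7g is on chromosome 9 from 106178840 to 106178927, inside an intron of Wdr82, which encodes a subunit of histone methyltransferase complexes. let-7c-2 and let-7b stand 621 bases apart on chromosome 15, from 85706603 to 85706697 and from 85707319 to 85707403, both in exons of the noncoding gene Lncppara. let-7c-1 is on chromosome 16 from 77599657 to 77599750, within an intron of noncoding Mir99ahg, 656 bases after mir-99a. let-7e is on chromosome 17 from 17830352 to 17830444, inside an intron of Spaca6, between mir-99b and mir-125a. let-7j, on chromosome 3 from 140028249 to 140028370, and let-7k, on the minus strand of chromosome 5 from 147283189 to 147283298, overlap no other annotated gene.

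Depth was from 2414132 to 6092460 counts per library. The deposited normalized expression value is the count times 1 constant per library, and all levels below are on this scale unless shares are named. The chi-square per degree of freedom between replicates was 93.3 for Myo-EVs and 15.9 for FFSS-Myo-EVs, so replicates differed by more than counting error. Among the 8 entries, the larger replicate was at most 1.26 times the smaller in Myo-EVs and 1.14 times in FFSS-Myo-EVs. OB and BM have 1 library each, so their levels carry only exact Clopper-Pearson 95% intervals, which cover counting error and not biological spread. The labels were set beside marker miRNAs. Of 7 listed blood cell markers, 5 had an entry of that name, and their summed level was 17106.3 in BM, 149.1 in OB and at most 46.9 in the vesicle libraries. The 7 mesenchymal markers, such as mir-143 and mir-199a-1, summed to 536441 in OB, 22199.7 in BM and 335152 to 437744 in the vesicles. The 6 muscle markers summed to 2052.9 to 2641.9 in the vesicles, nearly all of it mir-206, to 118.9 in OB and to 71.9 in BM, and mir-1a-1 was at 0 in all 4 vesicle libraries. mir-1a-1 and mir-1a-2, at 30.6 and 31.4 in BM, were higher there than in any vesicle library. mir-133b was above both cell libraries in all 4 vesicle libraries, and mir-133a-1 and mir-133a-2 were above OB only in some. BM thus carried the blood cell list and vesicles carried mir-206, whereas the mesenchymal sum was high in both OB and vesicles. Most of that sum in the vesicles was mir-143, at 274482 to 372549, beside 269506 in OB. mir-199a-1, mir-199a-2, mir-199b and mir-214 were below OB in all 4 vesicle libraries, mir-199a-1 at 11324 to 16350 against 87356. mir-143, mir-145a and mir-145b were above OB in all of them.

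let-7i dominated the 7 names in every library. It made up 61.1% of their counts in OB and 56.6% in BM. Its share was 55.1% and 60.9% in Myo-EVs, and 56.0% and 53.3% with FFSS. let-7g was second in all 6 libraries, at 20.2% in OB, 38.1% in BM, and 20.4% and 17.9% in Myo-EVs. With FFSS its shares were 23.2% and 23.0%. These 2 names together thus took most of the counts in each condition, and BM stood apart by the share of let-7g.

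**Figure D1:**
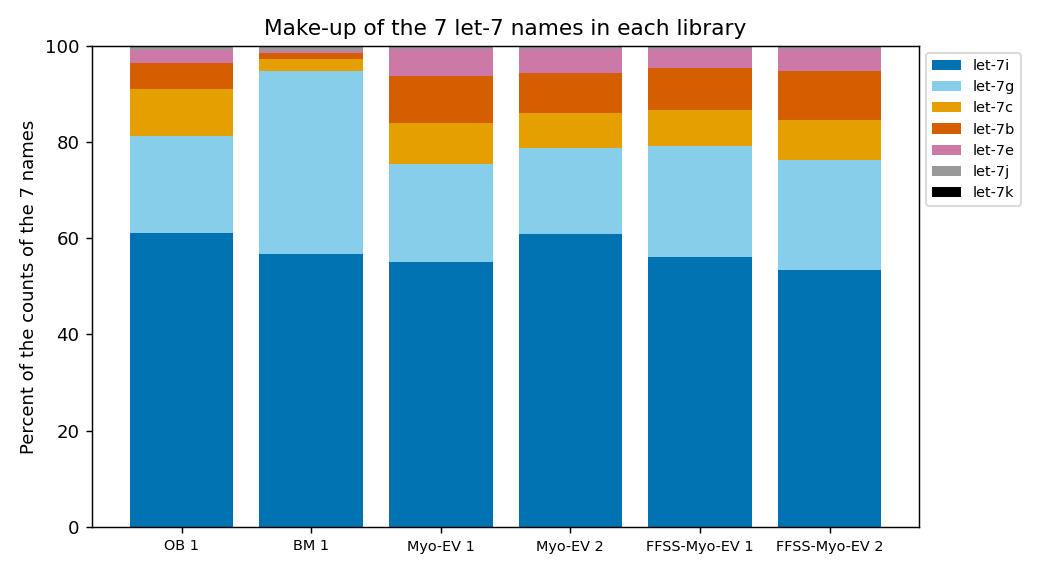
Each bar is 1 library and stacks the percent of the counts of the 7 let-7 names taken by each name, with let-7c counted once. let-7i is the largest part of every bar, from 53.3% to 61.1%, and let-7b, let-7c and let-7e are visibly thinner in BM than in the other 5 libraries.

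The third place differed between conditions. In OB it was held by let-7c, at 9.80% against 5.36% for let-7b, and in BM by let-7c as well, at 2.56% against 1.28%. In the vesicles let-7b was above let-7c in all 4 libraries. The count of let-7b relative to let-7c-2, an entry that also holds the reads of let-7c-1, was 0.547 in OB and 0.502 in BM, and it was 1.15, 1.19, 1.20 and 1.22 in the vesicle libraries. let-7e came next in OB and in the vesicles, at 2.75% in OB and 3.86% to 5.53% in the vesicles, but it came after let-7j in BM, where it made up 0.377%. let-7k was last everywhere, with at most 0.0341%. Each neighbouring pair in the order of levels was apart beyond its counting interval in OB and BM. In the FFSS-Myo-EVs no neighbouring pair overlapped between libraries. In Myo-EVs let-7b and let-7c did overlap, with let-7b 1.17 times let-7c on average. Levels of different names also carry the efficiency with which adapters were ligated to each sequence, which was not measured here.

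**Figure D2:**
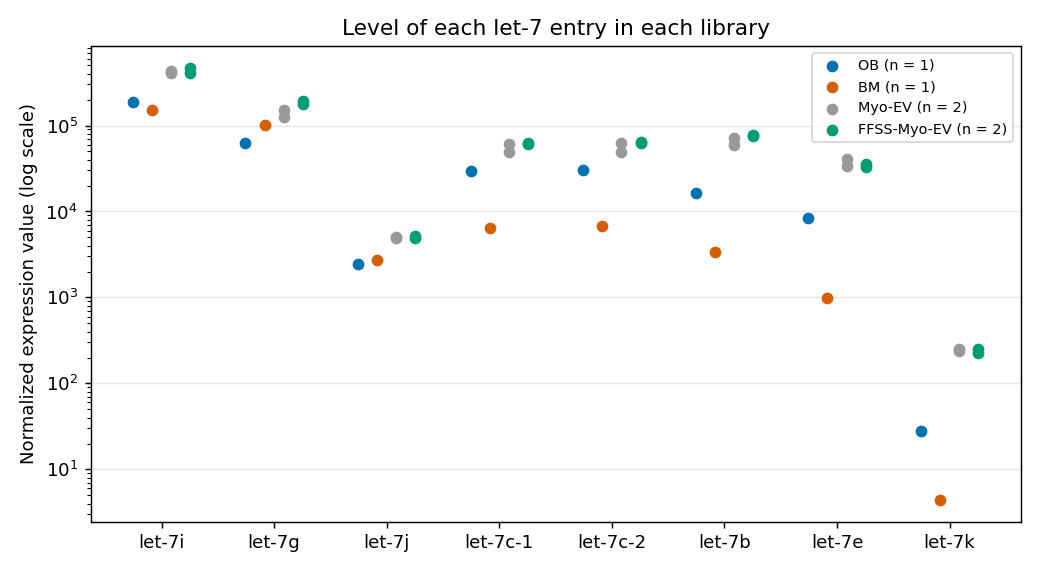
Each point is the normalized expression value of 1 entry in 1 library, on a log scale, coloured by condition. For let-7c, let-7b, let-7e and let-7k the BM point lies well below the OB point, whereas for let-7i, let-7g and let-7j these points lie close together.

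The summed level of the 7 names was 307342 in OB and 264871 in BM. It was 716932 ± 26101 (SD, n = 2) in Myo-EVs and 808794 ± 48306 (SD, n = 2) in FFSS-Myo-EVs. All 4 vesicle libraries were above both cell libraries. As a share of all miRNA counts the names made up 10.7% in OB, 10.9% in BM and 24.2% to 27.9% in the vesicles. Here let-7c was counted once, but the total counts every entry. All 8 entries together made up 11.77% in OB, 11.21% in BM and 25.86% to 29.97% in the vesicles. The mean of the 4 vesicle libraries was 2.48 times OB and 2.88 times BM. In samples of many cells, fewer cells of a type and less of a miRNA per cell cannot be told apart. The BM to OB ratio of the sum was 0.862, but it was 1.02 with CPM, counts scaled by the library total, so no direction is given for it.

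Between the cells, the entries parted into 2 sets. let-7e, let-7k, let-7b, let-7c-1 and let-7c-2 were from 4.45 to 8.47 times higher in OB than in BM, and let-7i, let-7j and let-7g were between 0.616 and 1.25 times. Within the 8 entries these are the sets that G12U and U18C separate, which is a description made after the values were seen. It did not hold over the rest of the family. let-7a, let-7d, let-7f and mir-98 also lack both substitutions, and their OB to BM ratios were only from 0.759 to 1.12. let-7b was 16472 in OB (95% interval 16290 to 16660) and 3402 in BM (3330 to 3474). let-7c-2 was 30120 in OB and 6770 in BM. let-7e showed the largest ratio, with 8452 in OB (8319 to 8587) and 998.1 in BM (959.5 to 1038). let-7k rested on 50 counts in OB and 11 in BM, so its 6.27-fold ratio is loose. In the opposite direction, let-7g was 62155 in OB and 100951 in BM, a BM to OB ratio of 1.62. let-7i was 187635 in OB and 150022 in BM, and let-7j was 2481 and 2725. The direction for let-7j turned with median-of-ratios scaling, where BM was 0.941 times OB.

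A ratio of OB to BM above 2 was found for 5 of the 8 entries, against 32.7% of the 443 entries with a mean level of at least 10, and a ratio below 0.5 for 0 of 8, against 26.4%. The median ratio was 4.53 over the 8 entries and 0.927 over the 443. let-7c-1 and let-7c-2, which hold the same reads, are both among the 5 and both enter the median. With 1 library of each cell there is no replicate check of these ratios. The mesenchymal list, at 536441 in OB and 22199.7 in BM, and the blood cell list, at 149.1 and 17106.3, moved with the same contrast, and their part in it was not tested.

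**Figure D3:**
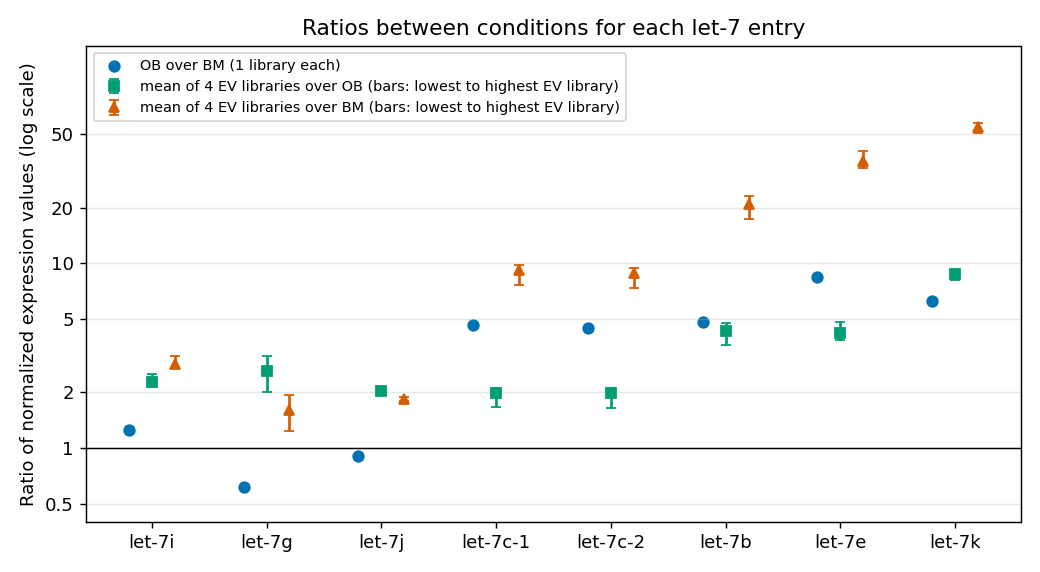
For each entry the circle is the OB to BM ratio, the square the ratio of the mean of 4 vesicle libraries to OB and the triangle its ratio to BM, on a log scale, with bars from the lowest to the highest vesicle library. The vesicle to OB ratios lie between 1.98 and 8.73, whereas the vesicle to BM ratios spread from 1.61 for let-7g to 54.8 for let-7k.

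In the vesicles, every one of the 8 entries was above its OB level and above its BM level in all 4 libraries. Of the 443 entries with a mean level of at least 10, 35.2% were above both cell libraries in this way, and 28.9% were below both, as were 0 of the 8. let-7i, the most abundant, was 404953 and 425693 in Myo-EVs, and with FFSS it was 472143 and 413100. It was 2.29 times OB and 2.86 times BM on average, and it ranked second among all 1006 entries in each vesicle library. let-7g was 150151 and 124972 in Myo-EVs, and 195364 and 178368 with FFSS, on average 2.61 times OB and 1.61 times BM. let-7b was 71810 and 59271 in Myo-EVs, and 74880 and 78211 with FFSS. Its vesicle mean was 4.31 times OB and 20.9 times BM, and all 4 libraries stood at least 3.60 times above OB. let-7c-2 was 62476 and 49734 in Myo-EVs, and 62585 and 63956 with FFSS, which was 1.98 times OB and 8.82 times BM, and let-7c-1 was within a few percent of it in each library. The vesicle to OB ratio was thus higher for let-7b than for let-7c, whose reads cannot be assigned to 1 of its 2 genes.

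let-7e was 40645 and 33628 in Myo-EVs, and 32576 and 35856 with FFSS, on average 4.22 times OB and 35.7 times BM. let-7k was between 223.1 and 251.4 in the 4 libraries, 8.73 times OB and 54.8 times BM, the latter against 11 counts. let-7j was between 4895 and 5181, 2.03 times OB and 1.85 times BM. The low entries followed the high ones of like sequence in part. The count of let-7j was 1.32% of that of let-7i in OB, 1.82% in BM and 1.10% to 1.26% in the vesicles. The count of let-7k was 0.327% of that of let-7e in OB, 0.438% in BM and 0.617% to 0.709% in the vesicles. Relative to let-7b it was 0.168%, 0.128% and 0.298% to 0.402%. Whether reads of let-7i, let-7b or let-7e with 1 or 2 read errors were listed under let-7j or let-7k was not tested, and the number of mismatches allowed is not given in the sources used here.

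Of the 8 entries, 6 exceeded OB by more than 2-fold, against 35.4% of the 443 entries, and 6 exceeded BM by more than 2-fold, against 35.9%. None of the 8 was below OB or BM by more than 2-fold, against 36.1% and 42.7%. The medians over the 8 entries were 2.45 for OB and 8.99 for BM, beside 0.999 and 0.966 over the 443. let-7c-1 and let-7c-2, which hold the same reads, both enter these medians and are both among the 6 that exceeded BM. With median-of-ratios scaling, 4 and not 6 of them exceeded OB by more than 2-fold, namely let-7b, let-7e, let-7g and let-7k, against 31.4% of all entries. Nothing fixes the scale between vesicles and cells, and vesicle RNA and cell RNA were prepared from different material, so a level in vesicles and one in cells cannot be told apart from a difference in what else each library holds.

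Whether FFSS altered these miRNAs in the vesicles was asked on the 4 vesicle libraries with edgeR's quasi-likelihood test over 354 entries. Of the 8 entries, 0 were called higher and 0 lower at an adjusted p under 0.05, whereas 12.1% of all tested entries were called higher and 18.4% lower. These were 43 higher and 65 lower entries, and the split turned to 54 and 39 with the authors' scaling and to 49 and 46 with library totals. At an unadjusted p under 0.05 there were 0 of the 8 as well, DESeq2 called 0, and limma with a pseudocount of 1 called 1, let-7g. The log2 fold changes ran from -0.25 for let-7e to 0.31 for let-7g, with a median of 0.0015 beside -0.025 over all tested entries. On TMM-scaled values the vesicle groups were separate with FFSS higher for 1 of the 8, let-7g, against 26.0% of the tested entries. They were separate with FFSS lower for 2, let-7e and let-7k, against 32.5%. Relative to TMM, the scaling of the deposited values places FFSS-Myo-EVs higher by 0.12 (log2). On it the groups were separate for let-7g, let-7b and let-7c-2, all higher, and for none lower. The share of all tested entries that were separate on this scale was not counted. For let-7c-2 the gap was narrow, 62585 with FFSS against 62476 in Myo-EVs, and let-7c-1, of the same mature sequence, overlapped.

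let-7g had the highest estimate. Its mean level was 137561 ± 17804 (SD, n = 2) in Myo-EVs and 186866 ± 12018 (SD, n = 2) in FFSS-Myo-EVs, and its log2 fold change was 0.31 (standard error 0.23, 95% interval -0.13 to 0.76, adjusted p = 0.325, edgeR). With the authors' scaling in the same test it was 0.44 and passed, with an adjusted p of 0.0389. The estimate also moved with single libraries. Without the first Myo-EV library it was 0.52, and without the second it was 0.23. Without the first FFSS-Myo-EV library it was 0.19, and without the second it was 0.46. As a share of the 7 names, which needs no scaling, let-7g was 19.1% ± 1.79 (SD, n = 2) in Myo-EVs and 23.1% ± 0.106 (SD, n = 2) in FFSS-Myo-EVs, and its groups did not overlap. The exact permutation test of this share gave p = 0.333 (two-sided), the smallest that 2 against 2 libraries allow, and 0.583 when adjusted over the 7 names.

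let-7e had the lowest estimate. Its mean level was 37137 ± 4961 (SD, n = 2) in Myo-EVs and 34216 ± 2319 (SD, n = 2) in FFSS-Myo-EVs, which gave a log2 fold change of -0.25 (standard error 0.17, 95% interval -0.59 to 0.09, adjusted p = 0.309, edgeR). Without the second Myo-EV library it was -0.33, and without the first it was -0.04. It was -0.23 and -0.24 without the first and the second FFSS-Myo-EV library. Its share of the 7 names was 5.17% ± 0.504 (SD, n = 2) in Myo-EVs and 4.25% ± 0.540 (SD, n = 2) in FFSS-Myo-EVs, without overlap. Relative to let-7b, the count of let-7e was 0.566 and 0.567 in Myo-EVs but 0.435 and 0.459 with FFSS. The separation was larger than the spread within either group, with the same smallest exact permutation p of 0.333. Such separation was not rare among ratios between entries. That of let-7c-2 to let-7c-1, of 1 mature sequence, was separate too, at 1.012 and 1.011 against 1.019 and 1.021. Those of let-7g to let-7i and let-7b to let-7c-2 were separate and higher with FFSS. That of let-7k to let-7b was separate and lower, at 0.3495% and 0.4021% in Myo-EVs against 0.298% and 0.3214% with FFSS. Those of let-7j to let-7i and let-7k to let-7e overlapped.

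let-7i was not called, at a log2 fold change of -0.03 (95% interval -0.57 to 0.52, adjusted p = 0.962, edgeR), and its share of the 7 names overlapped between the groups. let-7b, let-7c-1, let-7c-2, let-7j and let-7k had log2 fold changes from -0.17 to 0.09 and adjusted p from 0.556 to 0.935 in the same edgeR test, with 95% intervals that together reached from -0.54 to 0.48. For let-7j and let-7k the share of the 7 names was lower in both FFSS-Myo-EV libraries than in both Myo-EV libraries, at 0.623% against 0.701% and 0.0295% against 0.0341%. Both gave the smallest possible exact permutation p of 0.333, and 0.583 when adjusted over the 7 names. The let-7k shares rest on 199 to 250 counts, and their counting intervals overlapped between the groups. The blood cell list summed to 42.1 and 46.9 in FFSS-Myo-EVs against 9.6 and 11.0 in Myo-EVs. These sums rest on few counts. mir-451a was the largest part of them in FFSS-Myo-EVs, with 16 and 26 counts. mir-150 overlapped between the groups, and mir-144 was at 4.0 in 1 library of each. The part of this list in these comparisons was not tested.

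**Figure D4:**
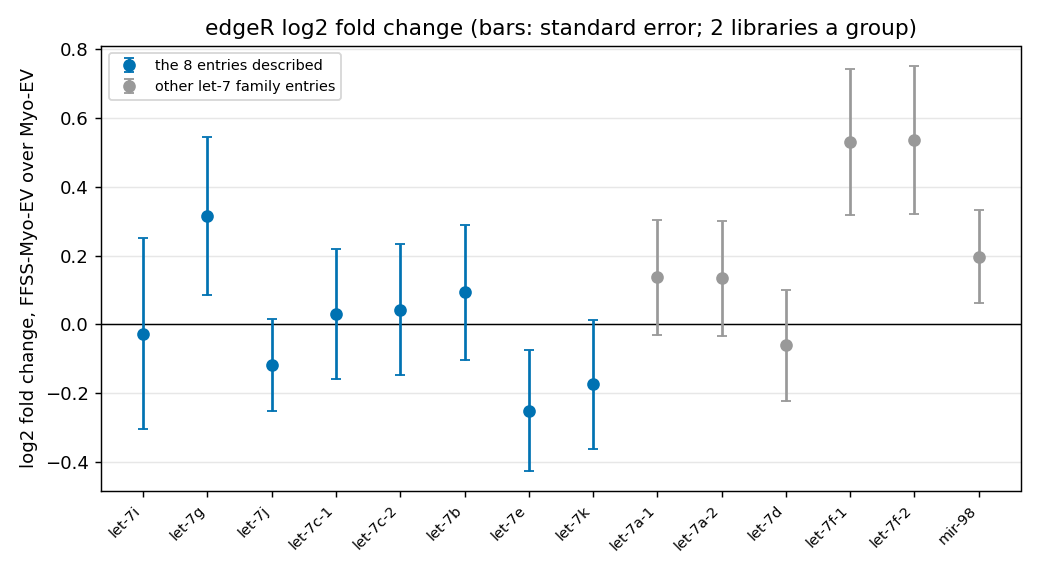
Points are edgeR log2 fold changes of FFSS-Myo-EVs over Myo-EVs and bars their standard errors, from 2 libraries a group. The 8 entries described lie between -0.25 and 0.31, and the 2 let-7f entries, in grey, lie higher at 0.53 and 0.54.

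The other 6 entries of the family, let-7a-1, let-7a-2, let-7d, let-7f-1, let-7f-2 and mir-98, gave 2 higher calls and 0 lower ones. These were let-7f-1 and let-7f-2, with log2 fold changes of 0.53 and 0.54 and adjusted p of 0.0424 and 0.0419 in edgeR, and they share 1 mature sequence. Counting each of the 11 family names once, let-7i was first in every library, at 45.4% in OB, 38.5% in BM and 42.7% to 51.6% in the vesicles. let-7g was second in BM and the vesicles, whereas in OB it came behind let-7f, at 15.0% against 17.3%. The 7 names made up 74.4% of the family in OB, 68.1% in BM and 80.1% to 84.6% in the vesicles. The whole family was 14.4% of all miRNA counts in OB, 16.1% in BM and 28.5% to 34.7% in the vesicles. Each family name was counted once in these shares, but the total counts every entry.

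Some of the entries have neighbours that are thought to be transcribed with them. These are mir-99a and mir-125b-2 beside let-7c-1, and mir-99b and mir-125a beside let-7e, members of the miR-10 and miR-125 families. The count of let-7c-1 relative to mir-99a was 0.827 in OB and 0.485 in BM, but 12.2 and 11.2 in Myo-EVs, and 9.67 and 9.80 with FFSS. mir-99a itself was 35768 in OB and between 4390 and 6392 in the vesicles, so it was lower in the vesicles than in OB where let-7c-1 was higher. Since let-7c reads cannot be assigned to 1 of its 2 genes, this ratio holds both. let-7e kept closer to mir-99b, at 0.292 in OB, 0.536 in BM and 0.515 to 0.771 in the vesicles. Relative to mir-125a it was 1.33 in OB and 1.73 in BM but 0.623 to 0.853 in the vesicles. Of the 4 neighbours, 0 were called higher and 1 lower in FFSS-Myo-EVs. This was mir-125a, with a log2 fold change of -0.54 and an adjusted p of 0.0163 in edgeR.

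The entries outside the family whose pattern over the 6 libraries was nearest to that of the summed 7 names were mir-3970, mir-421 and mir-181b-1, among 232 entries with a mean level of at least 100. The root mean square difference of the centred log2 values was 0.114 for mir-3970, 0.292 for mir-421 and 0.293 for mir-181b-1, beside a median of 1.42. mir-3970 was 211.5 in OB, 225.2 in BM and from 524.0 to 588.1 in the vesicles. That it was also above both cells in all 4 vesicle libraries goes with its choice by pattern and is no separate result. Its sequence was not compared with those of let-7, so whether it holds let-7 reads was not tested.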

How the data were processed

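Small RNA libraries were made with 12 PCR cycles, starting from 90 ng total RNA, and read as 36-base pairs. The authors grouped reads by sequence and matched them to miRBase in CLC Genomics Workbench 10.1.1, and they deposited a raw count per precursor entry, with the 5p and 3p forms together. The deposited normalized expression value is a signal that the authors made by scaling the count (total, then trimmed means, 5% trimming), and in the file it equals the count times 1 constant per library. The labels name mm10, whereas the miRBase release is not given in the sources used here.

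Here, edgeR 4.0.16 in R 4.3.3 was run on the counts of the 4 vesicle libraries with TMM factors and the quasi-likelihood test, over the 354 entries whose normalized values averaged 10 or more, with Benjamini-Hochberg adjustment. The fit had 2 residual degrees of freedom and a common dispersion of 0.0108, and standard errors were derived from the F statistic. OB and BM were compared without a test. Shares were tested with exact permutation, and exact intervals came from scipy 1.17.1 in Python 3.11.15. Positions were taken from GENCODE M21 (GRCm38) and sequences from RefSeq. Limma 3.58.1 and DESeq2 1.42.0 were alternatives. Entries named were the members, the rest of the family, listed genomic neighbours, marker lists and the 3 entries of nearest pattern. The members and lists were chosen with earlier results of these data known. The code was tested on simulated data.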

Additional observations from a re-analysis of the deposited data

How the results depend on the processing

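Depth was not the limit for the abundant entries. The limit was 1 library each of OB and BM and 2 of each vesicle group, and let-7k rested on 11 counts in BM. Called in edgeR were 0 of the 8 entries, and 1 with the authors' scaling and 1 with limma and a pseudocount of 1 (let-7g both times). The number called was 0 with median-of-ratios factors, library totals, either filter, DESeq2, limma with a pseudocount of 10 and 1 entry per name. With a vesicle library left out, 1 group held a lone library, which was assumed to vary like the other group. Only effect sizes are given for those fits. The log2 fold change then ran from 0.19 to 0.52 for let-7g and from -0.33 to -0.04 for let-7e. The replicate block gave 0 as well, beside 44 higher and 66 lower calls over all entries, and changed no call among the 8. Over all entries the calls were 43 higher and 65 lower, but 57 higher and 37 lower with limma and a pseudocount of 1. Same-numbered libraries share only a number in the labels, and their deviations correlated at 0.209 over 354 entries.

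Small fold changes turned sign. For let-7i the log2 fold change became 0.045 with library totals, 0.092 with the authors' scaling, 0.016 with a mean of at least 100, 0.089 with limma at either pseudocount and 0.030 with 1 entry per name, and it ranged from -0.18 to 0.14 over the libraries left out. For let-7j it became 0.0048 with the authors' scaling and 0.0044 with limma at either pseudocount. Without a filter it was -0.019 for let-7c-1 and -0.0068 for let-7c-2. Over the libraries left out, these ranged from -0.077 to 0.27 and from -0.065 to 0.28.

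The share of let-7i, with let-7c summed over both entries, was 55.7% in OB, 55.3% in BM and 50.8% in FFSS-Myo-EVs. Over all 11 family names it was 45.4%, 38.5%, 48.6% in Myo-EVs and 43.9% in FFSS-Myo-EVs. It was the highest share in each case. The difference of share between the vesicle groups became -0.018 points for let-7b and -0.24 points for let-7c over the 11 names, and ranged from -0.28 to 1.00 and from -0.66 to 0.72 over the libraries left out.

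For the sum of the 7 names, CPM gave 1.02 for BM over OB and 2.37 for vesicles over BM. Median-of-ratios scaling gave 0.738 for BM over OB, 1.95 for vesicles over OB and 2.64 for vesicles over BM. For let-7j, BM over OB was 0.941 with that scaling. The causes were not tested.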
